A study of Homo sapiens with 6 samples.

Results

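The genes described here are 50 genes of DNA replication and of the G1/S step, the point at which a cell commits to copying its genome. They were chosen by symbol from a written list, at a time when earlier results of these data were known, so their counts are not independent of those results. All 50 symbols were found among the 38637 genes in the deposited table. All 50 also passed the filter on low values, which left 16178 genes to test.

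Transcripts were sequenced from OVCAR8, an established human ovarian cancer cell line whose genotype is labelled wild type. One group of 3 samples received DMSO, the solvent control, and the other group of 3 received pladienolide B, a small molecule that binds SF3B1 in the spliceosome and inhibits pre-mRNA splicing. The series description gives a dose of 2 nM, and cells were collected after 72 h. Libraries were made from polyA RNA, so transcripts were counted per gene and neither protein nor DNA synthesis was measured. The sources do not say whether the 3 samples of a group came from separate cultures. The p-values set the difference between groups against the spread between these samples, which may be technical.

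DNA replication starts at origins, where ORC, CDC6 and CDT1 load the ring-shaped MCM helicase in G1, a step called licensing. Cyclin-dependent kinases and other factors then add CDC45 and the GINS complex to switch the helicase on. DNA polymerase alpha with primase lays down primers, polymerases epsilon and delta extend the leading and lagging strands, the sliding clamp PCNA holds them on the DNA, and FEN1 and LIG1 finish the lagging strand fragments. Many of these genes are transcribed together as cells leave G1, when cyclin-dependent kinases release E2F transcription factors from RB1.

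Values are given as adjusted reads, the authors' read counts per gene after scaling to a common library size. The samples held 22621338 to 26130882 reads on genes, and a member had between 166 and 20069 reads in a sample. The median coefficient of variation over the members was 3.28% among the DMSO samples and 3.68% among the pladienolide B samples. Replicates of the same group had log2 correlations of at least 0.992 across genes. DMSO replicate 2 stood apart from the other DMSO samples, with a chi-square per degree of freedom of 7.29 and 7.2 against them, where DMSO replicates 1 and 3 gave 2. For 24 of the 50 members it was the DMSO sample farthest from the other 2, and calls that change without it are given with both values. Of the 8 epithelial markers, KRT7, KRT8, KRT18 and EPCAM had over 100 reads in every sample, while KRT19, CDH1, CLDN3 and CLDN4 had 8 to 58. Of the 6 markers of ovarian carcinoma, PAX8 and MSLN had 3383 to 5427 reads and FOLR1 80 to 173, while WT1, MUC16 and SOX17 had at most 32. The 8 leukocyte markers summed to 45 to 48 reads in DMSO and 37 to 54 in pladienolide B, the 4 endothelial markers to 64 to 82 and 78 to 114, and the 5 fibroblast markers, almost all COL1A1, to 6885 to 7292 and 5469 to 6370. Their part in the results was not tested. SF3B1, the target of the compound, had 9787, 10386 and 10083 adjusted reads in DMSO and 12345, 12892 and 12289 in pladienolide B, which gave a log2 fold change of 0.31 (standard error, SE, 0.04, limma adjusted p = 7.52e-06).

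Of the 50 members, 31 passed an adjusted p of 0.05 by limma with Benjamini-Hochberg adjustment over all genes tested, against 47.6% of all genes. Among them 10 members, or 20%, were higher in pladienolide B, against 22.4% of all genes, and 21 members, or 42%, were lower, against 25.2%. The groups did not overlap for 34 members, or 68%, against 55.3% of all genes. Most changes were small. The median log2 fold change was -0.08, against -0.004 over all genes tested, and 43 of the 50 lay between -0.5 and 0.5. Among the 8829 tested genes whose DMSO means lay in the range of the members, 2441 were higher and 2842 lower, with a median of -0.01. In both directions these are larger shares than over all genes tested. A fall of at least 2-fold was seen for 2 members, LIG1 and POLA1, against 1.98% of all genes, and a rise of at least 2-fold for 0 members, against 1.95%. That list of 2 depended on single samples, and with each left out in turn it held 2 or 3 members. LIG1 stayed on it, from -1.08 to -1.03. POLA1 left it without DMSO replicate 2, at -0.99. E2F2, which ran from -1.04 to -0.92, joined it without DMSO replicate 2 or 3 or pladienolide B replicate 2 or 3, and CDC45 joined it without pladienolide B replicate 1, at -1.02.

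The members did not move as one group. LIG1, POLA1, E2F2, CDC45 and POLD1 had log2 fold changes from -1.05 to -0.90, so that 48.3% to 53.6% of their DMSO levels remained. The other 16 that fell had values from -0.52 to -0.12, and the 10 that rose had values from 0.21 to 0.54. The 19 members that did not pass had values from -0.15 to 0.11, and the lowest and highest bounds of their 95% intervals were -0.29 and 0.23. Summed over all 50 members, adjusted reads came to 158680 ± 3320 in DMSO and 156440 ± 2660 in pladienolide B (SD, n = 3 per group), and the sums of the groups overlapped. As a share of all adjusted reads, the members took 0.640% ± 0.00489 in DMSO and 0.647% ± 0.0113 in pladienolide B (SD, n = 3 per group), again with overlap. Both measures give most weight to the members with the most reads. CCND1 alone, the member with the largest rise, had a mean of 13878 in DMSO and 20077 in pladienolide B. The overlap therefore does not show that the other members together kept their level. In bulk RNA, fewer cells in S phase and less RNA per cell cannot be told apart.

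**Figure D1:**
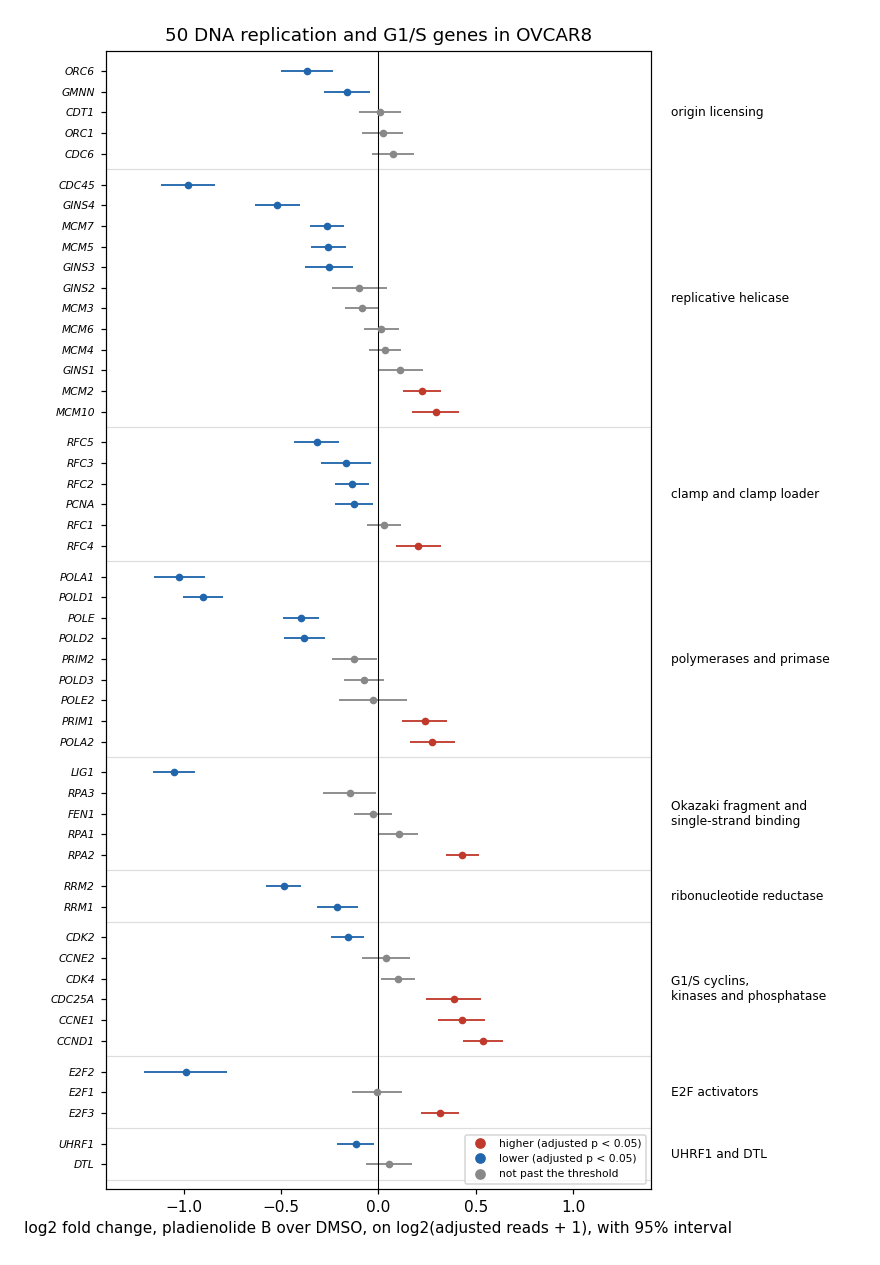
Log2 fold change of each of the 50 members (pladienolide B over DMSO, on the log2(adjusted reads + 1) scale, x axis), grouped by role, with 95% intervals from limma and n = 3 per group. CDC45, POLA1, POLD1, LIG1 and E2F2 sit between -1.05 and -0.90, while CCND1, CCNE1, RPA2 and CDC25A sit between 0.39 and 0.54.

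The promoters of 4 of these genes are shown because they carry a match to the DNA word bound by E2F factors and because their transcripts went different ways. CDC25A, which encodes a phosphatase that activates cyclin-dependent kinases, rose, whereas LIG1, POLA1 and E2F2 fell. Each sequence is the 250 bases before the transcription start, 5′ to 3′ on the gene's strand, from RefSeq on GRCh38.p14, with the match in capitals. The CDC25A sequence is chr3:48188418-48188667 on the - strand and its match begins 44 bases before the start. The LIG1 sequence is chr19:48170345-48170594 on the - strand, with the match 114 bases before the start. The POLA1 sequence is chrX:24693668-24693917 on the + strand, with the match on the opposite strand, 137 bases before the start. The E2F2 sequence is chr1:23531234-23531483 on the - strand, with the match 42 bases before the start. These RefSeq starts are not always the ends of the deposited gene positions. The LIG1 sequence lies within the deposited position of LIG1, and those of POLA1 and E2F2 overlap theirs in part.
CDC25A: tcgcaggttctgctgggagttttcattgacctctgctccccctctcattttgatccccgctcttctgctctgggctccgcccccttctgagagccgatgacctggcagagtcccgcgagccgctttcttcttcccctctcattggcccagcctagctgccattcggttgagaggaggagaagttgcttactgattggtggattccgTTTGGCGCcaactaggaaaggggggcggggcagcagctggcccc
LIG1: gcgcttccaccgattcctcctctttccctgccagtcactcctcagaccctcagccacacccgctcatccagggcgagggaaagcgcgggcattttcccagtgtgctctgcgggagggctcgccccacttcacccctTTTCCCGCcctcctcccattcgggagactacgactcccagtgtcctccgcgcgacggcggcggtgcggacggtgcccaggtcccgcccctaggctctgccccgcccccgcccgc
POLA1: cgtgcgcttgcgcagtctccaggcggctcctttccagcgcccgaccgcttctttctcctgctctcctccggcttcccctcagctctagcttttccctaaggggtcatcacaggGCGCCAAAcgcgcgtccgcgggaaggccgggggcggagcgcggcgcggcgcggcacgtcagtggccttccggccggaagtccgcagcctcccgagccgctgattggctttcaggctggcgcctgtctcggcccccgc
E2F2: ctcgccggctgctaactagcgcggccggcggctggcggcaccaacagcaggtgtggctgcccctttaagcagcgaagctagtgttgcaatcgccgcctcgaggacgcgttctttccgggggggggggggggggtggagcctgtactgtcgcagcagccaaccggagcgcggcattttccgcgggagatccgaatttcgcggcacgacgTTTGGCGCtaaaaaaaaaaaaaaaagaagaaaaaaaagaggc

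The words searched for E2F were TTTCCCGC, TTTCGCGC, TTTGCCGC and TTTGGCGC on both strands, in windows from 250 bases before to 50 bases after the start. Promoter windows were at hand for 41 members, and 9 of these genes had more than 1 window. At least 1 of the words was found for 23 of the 41 members, or 56.1%, against 3.99% of the 27305 genes in the promoter table and 6.4% of the 12198 tested genes in it. Counted by window, 3.31% of all 35116 windows held one. By direction of change, a word was found for 4 of the 8 members that rose, or 50%, 10 of the 18 that fell, or 55.6%, and 9 of the 15 that did not pass, or 60%. CDC45, POLD1, RRM2 and CCNE1 were among the members with no match in the window. The CCAAT box, CCAAT on both strands, was found for 26 of the 41 members, or 63.4%, against 39.7% of all genes and 42.2% of the tested genes. The CHR word TTTGAA is an element of genes expressed in G2 and mitosis. It was found on either strand for 2 of the 41 members, or 4.88%, against 18.2% of all genes and 13.8% of the tested genes. For 20 mitosis genes in the same table, the shares were 10% for E2F, 80% for CCAAT and 70% for CHR. These are matches of letters and say nothing about binding in these cells.

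Of the 5 licensing genes, ORC6 and GMNN fell and CDT1, ORC1 and CDC6 did not pass. ORC6, a subunit of the origin recognition complex, had 1610.0, 1615 and 1519.5 adjusted reads in the DMSO samples and 1215, 1122 and 1349.8 in the pladienolide B samples. Every treated sample was below every control. The means were 1581 ± 53.7 and 1229 ± 115 (SD, n = 3 per group), a log2 fold change of -0.37 (SE 0.06, limma adjusted p = 0.000136). GMNN encodes geminin, which binds CDT1 and blocks a further round of licensing. Its log2 fold change was -0.16 (limma adjusted p = 0.0257) and was -0.09 without DMSO replicate 2, where the call was lost (adjusted p = 0.0856). The call was also lost without pladienolide B replicate 2 (log2 fold change -0.15, adjusted p = 0.0847) or 3 (-0.14, adjusted p = 0.103). CDT1, ORC1 and CDC6, which load the helicase, had log2 fold changes of 0.01, 0.02 and 0.08, and their 95% intervals all included 0. The CDT1 to GMNN ratio of adjusted reads was 1.2 ± 0.149 in DMSO and 1.35 ± 0.108 in pladienolide B (SD, n = 3 per group), with overlapping samples.

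The 12 helicase genes split into 5 that fell, 2 that rose and 5 that did not pass. CDC45, the factor that joins MCM2 to MCM7 and GINS in the active helicase, had 1163, 1156 and 1227 adjusted reads in DMSO and 637, 551 and 614 in pladienolide B. The highest treated sample was well under the lowest control. The means were 1182 ± 39 and 601 ± 44.1 (SD, n = 3 per group), a log2 fold change of -0.98 (SE 0.07, limma adjusted p = 3.86e-09). CDC45 lies on chromosome 22 of GRCh38, from 19479294 to 19520612 on the + strand. GINS4, a GINS subunit, had 2269.7, 2361 and 2253 adjusted reads in DMSO and 1704, 1475 and 1634 in pladienolide B, again without overlap. Its log2 fold change was -0.52 (SE 0.05, limma adjusted p = 8.18e-07). Of the other GINS subunits, GINS3 fell with a value of -0.25, while GINS2 and GINS1 had values of -0.10 and 0.11 and did not pass. GINS1 passed without DMSO replicate 2, with a log2 fold change of 0.14 (limma adjusted p = 0.0305).

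The subunits of the MCM ring, which form a hexamer of 1 copy each, also moved in both directions. MCM7 and MCM5 fell, with log2 fold changes of -0.26 and -0.26, MCM2 rose by 0.22, and MCM3, MCM4 and MCM6 had values of -0.09, 0.04 and 0.01 and did not pass. MCM3 passed without DMSO replicate 2, with a log2 fold change of -0.10 (limma adjusted p = 0.022). The ratio of MCM2 to MCM5 was 1.51, 1.44 and 1.44 in the DMSO samples and 2.08, 1.91 and 2.12 in the pladienolide B samples, so the groups did not overlap. The 6 ring genes summed to 38760 ± 68.8 adjusted reads in DMSO and 37923 ± 986 in pladienolide B (SD, n = 3 per group), and these sums overlapped. MCM10, a firing factor that is not part of the ring, rose by 0.29 (SE 0.06, limma adjusted p = 0.000424). The gene LOC107986126 overlaps MCM2 on the opposite strand, holds 24.9% as many adjusted reads over all samples and had a log2 fold change of 0.24. Whether reads were counted by strand is not stated, so reads in the 2157 bases that the pair shares cannot be told apart.

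Of the 9 polymerase and primase genes, 4 fell, 2 rose and 3 did not pass, and the catalytic subunits POLA1, POLD1 and POLE were among those that fell. POLA1, the catalytic subunit of DNA polymerase alpha, had 1086, 1156 and 1105 adjusted reads in DMSO and 540.0, 536 and 572 in pladienolide B. All treated samples lay far below all controls. The means were 1116 ± 36.2 and 549 ± 19.8 (SD, n = 3 per group), a log2 fold change of -1.02 (SE 0.06, limma adjusted p = 1.12e-09). POLA1 lies on chromosome X of GRCh38, from 24693877 to 24996986 on the + strand. Its complex partners went the other way or did not pass. POLA2, the accessory subunit, rose by 0.28 (adjusted p = 0.000518), and PRIM1, the catalytic primase subunit, rose by 0.24 (adjusted p = 0.00194), both by limma. PRIM2, the large primase subunit, had a value of -0.12 and did not pass (limma adjusted p = 0.0708).

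POLD1, the catalytic subunit of DNA polymerase delta, had 2632, 2472 and 2595 adjusted reads in DMSO and 1389, 1331 and 1402 in pladienolide B, with no overlap. The means were 2566 ± 83.7 and 1374 ± 37.6 (SD, n = 3 per group), a log2 fold change of -0.90 (SE 0.05, limma adjusted p = 2.84e-10). POLD1 lies on chromosome 19 of GRCh38, from 50384291 to 50418018 on the + strand. Of its accessory subunits, POLD2 fell with a log2 fold change of -0.38 (limma adjusted p = 1.15e-05), while POLD3 had a value of -0.07 and did not pass. POLE, the catalytic subunit of DNA polymerase epsilon, had 3746, 3779 and 3877 adjusted reads in DMSO and 2766, 2943 and 2964 in pladienolide B. Its samples were separated by group, with a log2 fold change of -0.40 (SE 0.04, limma adjusted p = 1.43e-06). POLE2, its second subunit, had a value of -0.03 and did not pass.

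Partner genes of 1 complex were also compared as ratios within each sample, with the pairs chosen after the values were seen. The ratio of POLA1 to POLA2 was 1.03, 1.04 and 1.08 in the DMSO samples and 0.432, 0.403 and 0.444 in the pladienolide B samples. The ratio of POLD1 to POLD3 went from 1.55 ± 0.0275 to 0.873 ± 0.0218, and that of POLE to POLE2 from 7.86 ± 0.683 to 6.08 ± 0.351 (SD, n = 3 per group). Neither ratio had samples that overlapped between groups. An exact permutation test of 3 samples against 3 cannot go below a two-sided p of 0.1, so no p is given for these ratios.

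**Figure D2:**
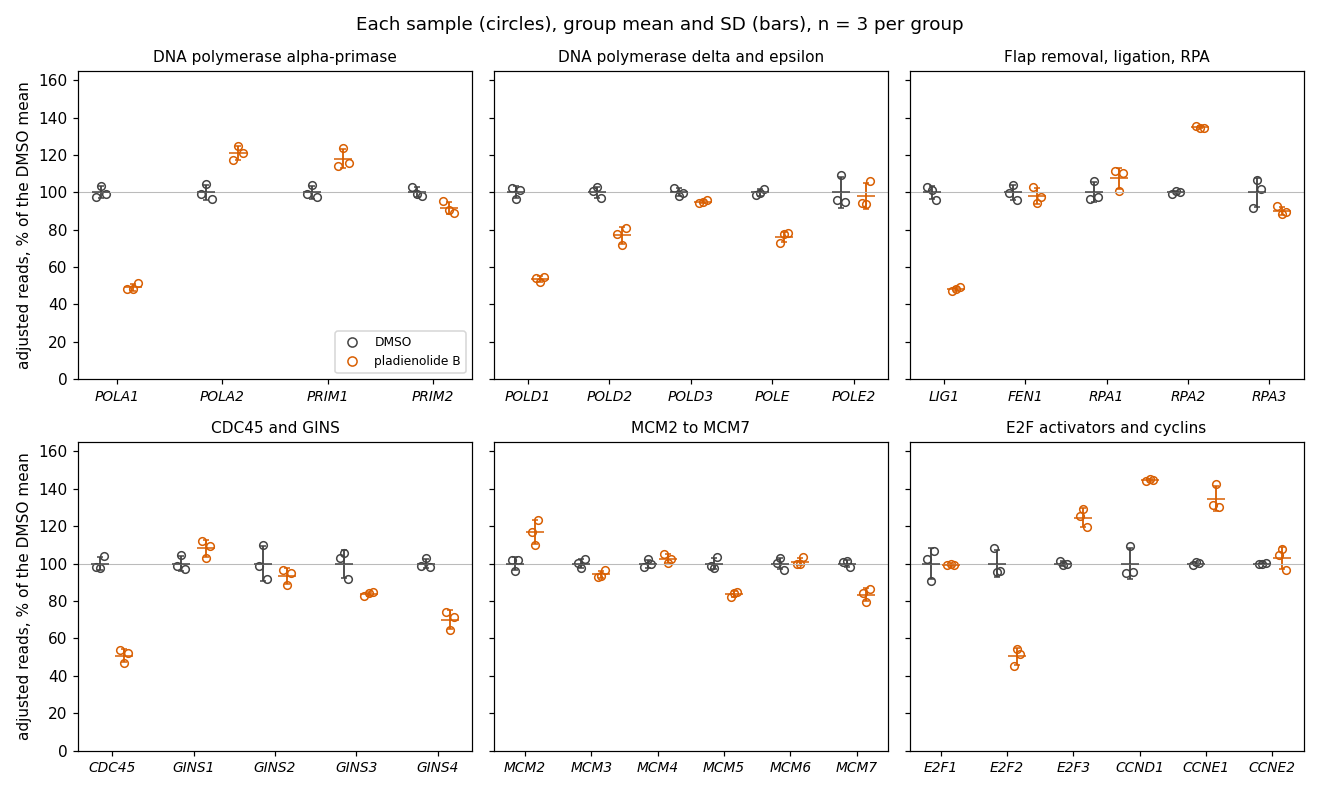
Adjusted reads of each sample as a percent of the DMSO mean of that gene (y axis) for genes that work together, with circles for samples and bars for the group mean and SD (n = 3 per group). POLA1, POLD1, LIG1, CDC45 and E2F2 stand near 50% in pladienolide B, beside partners such as POLA2, FEN1, MCM2 and E2F3 that stand near or above 100%. Not all partners do, and POLD2 stands at 76.9% and GINS4 at 69.9%.

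Of the 6 clamp and clamp loader genes, 4 fell, RFC4 rose and RFC1 did not pass. RFC5, a subunit of the clamp loader, had 1423, 1607 and 1460.1 adjusted reads in DMSO and 1198, 1186 and 1215 in pladienolide B. The treated samples lay close together under the controls, a log2 fold change of -0.32 (SE 0.06, limma adjusted p = 0.000169). WSB2 overlaps RFC5 on the opposite strand, had 121% as many adjusted reads over all samples and had a log2 fold change of 0.21 (limma adjusted p = 0.0023). RFC4, another subunit, rose by 0.21 (limma adjusted p = 0.00489), RFC2 fell with a log2 fold change of -0.13, and RFC1, the large subunit, had a value of 0.03. RFC3 had a log2 fold change of -0.17 (limma adjusted p = 0.0308), which was -0.11 without DMSO replicate 2 (adjusted p = 0.1) and -0.12 without pladienolide B replicate 2 (adjusted p = 0.168). With the replicate number as a block, its adjusted p was 0.05 after rounding and no longer passed. The RFC3 call was also lost by DESeq2 on read counts recovered from the values (adjusted p = 0.0533).

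PCNA, the sliding clamp, had 7259.8, 8112 and 7229 adjusted reads in DMSO and 6968, 6849 and 6877 in pladienolide B. There was no overlap, but DMSO replicate 2 was much higher than the other 2 controls. The log2 fold change was -0.13 (SE 0.05, limma adjusted p = 0.033), and -0.07 without DMSO replicate 2 (adjusted p = 0.078). Leaving out pladienolide B replicate 1, 2 or 3 also ended the call, with adjusted p-values of 0.0698, 0.0918 and 0.0835. With all samples, DESeq2 on the recovered read counts did not call PCNA (adjusted p = 0.051). The antisense gene PCNA-AS1 had 13.4% as many adjusted reads over all samples and a log2 fold change of -0.10.

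On the lagging strand, LIG1 had the largest fall of the members. LIG1, the ligase that seals Okazaki fragments, had 2043, 2008 and 1906 adjusted reads in DMSO and 938, 956 and 980.1 in pladienolide B. Each treated sample was at about the same level, far below every control. The means were 1986 ± 71.2 and 958 ± 21 (SD, n = 3 per group), a log2 fold change of -1.05 (SE 0.05, limma adjusted p = 1.01e-10), and 1.73% of all tested genes had a lower value. LIG1 lies on chromosome 19 of GRCh38, from 48115445 to 48170595 on the - strand. FEN1, the nuclease that trims the same fragments, had a log2 fold change of -0.03 (95% interval -0.13 to 0.07), and the ratio of LIG1 to FEN1 went from 0.523 ± 0.0153 to 0.257 ± 0.0148 (SD, n = 3 per group).

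Of the 3 subunits of RPA, the trimer that coats single-stranded DNA, RPA2 rose and the others did not pass. RPA2 had 2868, 2901 and 2896 adjusted reads in DMSO and 3907, 3883 and 3887 in pladienolide B. Both groups were tight and well apart, a log2 fold change of 0.43 (SE 0.04, limma adjusted p = 2.21e-07). RPA1 and RPA3 had values of 0.10 and -0.15 and did not pass. Without DMSO replicate 2, RPA1 passed with a log2 fold change of 0.15 (limma adjusted p = 0.00434), and it also passed without pladienolide B replicate 2 (0.15, adjusted p = 0.0292). Without DMSO replicate 1, RPA3 passed with -0.21 (adjusted p = 0.0218). UMAD1 overlaps RPA3 on the opposite strand and had 52.8% as many adjusted reads over all samples. The ratio of RPA2 to RPA3 was 3.53, 3.06 and 3.21 in DMSO and 4.76, 4.96 and 4.9 in pladienolide B.

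Both genes of ribonucleotide reductase, the enzyme that makes deoxynucleotides, fell. RRM2, the regulatory subunit that is limiting in many cells, had 5461, 5379 and 5319 adjusted reads in DMSO and 3964, 3680.0 and 3901 in pladienolide B. The groups were widely apart, a log2 fold change of -0.49 (SE 0.04, limma adjusted p = 9.27e-08). RRM1, the catalytic subunit, had a log2 fold change of -0.21 (limma adjusted p = 0.00227, and 0.0571 without limma's variance trend, which ties a gene's spread to its level, where the call was lost), and the ratio of RRM2 to RRM1 went from 0.85 ± 0.0685 to 0.702 ± 0.0318 (SD, n = 3 per group).

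Of the 6 genes for G1/S cyclins, kinases and phosphatase, CCND1, CCNE1 and CDC25A rose, CDK2 fell, and CCNE2 and CDK4 did not pass. CCND1 encodes cyclin D1, the partner of CDK4 in G1, and had 13195, 15193 and 13245 adjusted reads in DMSO and 19989.8, 20128 and 20112 in pladienolide B. The treated samples lay within a narrow range above all controls, of which DMSO replicate 2 was the highest. The means were 13878 ± 1139 and 20077 ± 75.5 (SD, n = 3 per group), a log2 fold change of 0.54 (SE 0.05, limma adjusted p = 1.63e-07), the largest rise among the members.

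CCNE1 encodes cyclin E1, the partner of CDK2 at the G1/S step, and had 827, 838 and 833 adjusted reads in DMSO and 1093, 1184 and 1085 in pladienolide B. There was no overlap, with a log2 fold change of 0.43 (SE 0.06, limma adjusted p = 1.16e-05). CCNE2, the second E-type cyclin, did not pass, with a value of 0.04 (95% interval -0.08 to 0.16). CCNE2 is overlapped on the opposite strand by INTS8, with 212% as many adjusted reads over all samples, and by NDUFAF6.

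CDC25A had 695, 789 and 667 adjusted reads in DMSO and 935, 941 and 930.0 in pladienolide B, with every treated sample higher than every control. Its log2 fold change was 0.39 (SE 0.07, limma adjusted p = 0.000157), and its promoter is shown above. Of the kinases, CDK2 fell and CDK4 did not pass. CDK2 had a log2 fold change of -0.16 (limma adjusted p = 0.00386). CDK4 had 4827, 5003 and 4766 adjusted reads in DMSO and 5177, 5089 and 5388 in pladienolide B, without overlap, but its log2 fold change of 0.10 did not pass (limma adjusted p = 0.0546). It passed without DMSO replicate 2, at 0.12 (adjusted p = 0.00946). With all samples, on read counts recovered from the values, CDK4 passed by edgeR (0.11, adjusted p = 0.0471) and by DESeq2 (0.11, adjusted p = 0.0412). TSPAN31 overlaps CDK4 on the opposite strand, had 38.4% as many adjusted reads over all samples and a log2 fold change of 0.17.

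The 3 activating E2F factors each behaved differently. E2F2 had 414, 366 and 368 adjusted reads in DMSO and 173, 207 and 197 in pladienolide B. Every treated sample was below every control, and the log2 fold change was -0.99 (SE 0.10, limma adjusted p = 5.05e-07). E2F2 was the member with the lowest level per length. E2F1, whose transcription is itself switched on at the G1/S step, had 1330.4, 1181 and 1391 adjusted reads in DMSO and 1289, 1296 and 1288 in pladienolide B. The treated samples lay within the range of the controls, with a log2 fold change of -0.0077 (95% interval -0.13 to 0.12). E2F3 rose by 0.32 (SE 0.05, limma adjusted p = 2.78e-05). The ratio of E2F2 to E2F3 was 0.195, 0.176 and 0.177 in DMSO and 0.0661, 0.0765 and 0.079 in pladienolide B, and these groups did not overlap.

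UHRF1, which guides DNA methylation onto newly made strands, had 5186, 4886 and 5019.8 adjusted reads in DMSO and 4411, 4619 and 4898 in pladienolide B. The groups overlapped, with the highest treated sample above the lowest control. Its log2 fold change of -0.12 passed narrowly (SE 0.05, limma adjusted p = 0.0447). The call was lost without DMSO replicate 1 (-0.09, adjusted p = 0.167) or 3 (-0.12, adjusted p = 0.093), without pladienolide B replicate 1 (-0.08, adjusted p = 0.23) or 2 (-0.11, adjusted p = 0.108), and with the replicate number as a block (adjusted p = 0.0685). On the recovered read counts it was also lost by edgeR (adjusted p = 0.0584) and by DESeq2 (adjusted p = 0.0932). DTL, which marks CDT1 for degradation in S phase, had a value of 0.05 and did not pass.

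The order of levels was set within each group after dividing by the exonic length of the canonical transcript in GENCODE. In DMSO, PCNA was the highest at 5904 adjusted reads per kilobase, followed by CCND1 at 3275, MCM7 at 3035, MCM4 at 2952 and CDK4 at 2609. In pladienolide B the same scale gave 5406 for PCNA, 4737 for CCND1, 2528 for MCM7, 3026 for MCM4 and 2798 for CDK4. MCM7 was thus above MCM4 and CDK4 in DMSO and below both in pladienolide B, though the sample ranges of MCM7 and MCM4 overlapped in DMSO. At the low end stood E2F2 at 73.7, CDC25A at 187 and POLA1 at 203 in DMSO, and E2F2 at 37.0, POLA1 at 100.1 and CDC25A at 243 in pladienolide B.

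**Figure D3:**
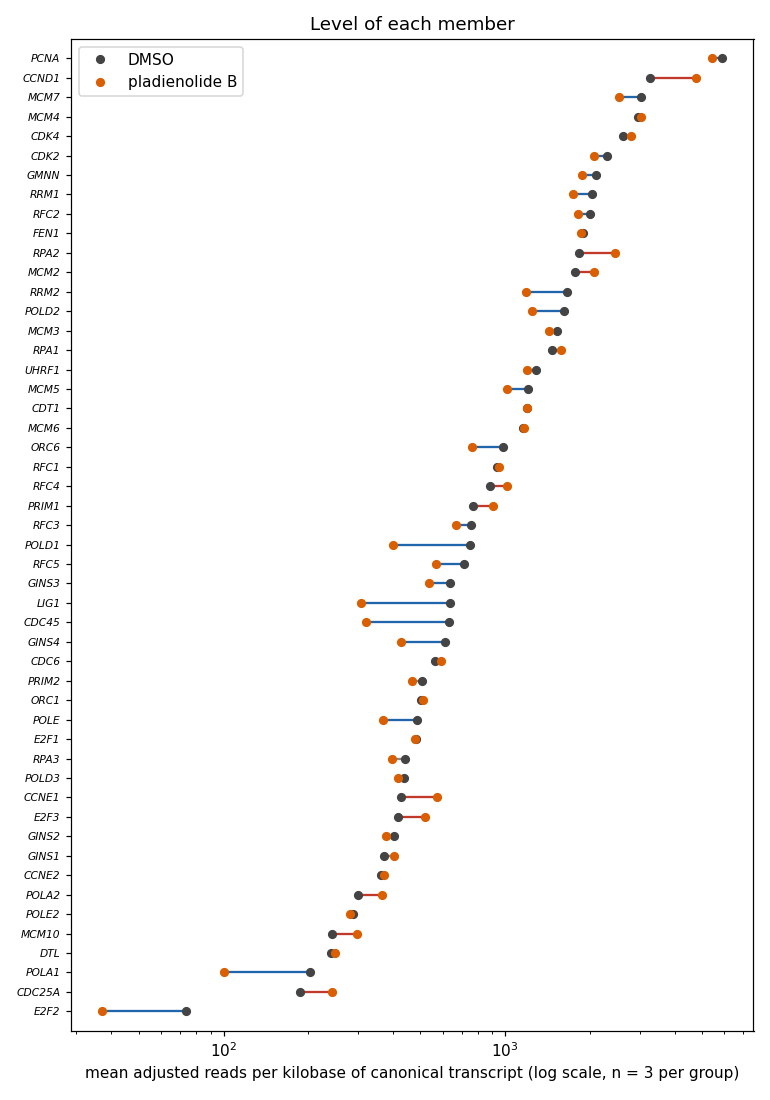
Mean adjusted reads per kilobase of canonical transcript (log scale, x axis) for each member in DMSO and pladienolide B, n = 3 per group, joined by a line coloured by the call and ordered by the DMSO level. The genes span from E2F2 at 73.7 to PCNA at 5904 in DMSO, and CCND1 stays next to PCNA in both groups.

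Because the compound acts on splicing, the changes were set beside the number of exons of each canonical transcript. Across the 50 members, Pearson's r between log2 exons and the log2 fold change was -0.24 and Spearman's rho -0.09, against -0.10 and -0.10 across 13700 tested protein-coding genes. Genes are not independent replicates, so these are descriptions. The 6 members with at least 20 exons, a class chosen after the values were seen, are POLE with 49, POLA1 with 37, LIG1 with 28, POLD1 with 27, RFC1 with 25 and MCM10 with 20. Of these 4 fell, MCM10 rose and RFC1 did not pass, with a median of -0.65. Among all protein-coding genes with at least 20 exons, 801 of 2142, or 37.4%, fell and 441, or 20.6%, rose, with a median of -0.08. Of the 17 members with 1 to 9 exons, 47.1% fell and 17.6% rose, against 22.7% and 25.3% of all protein-coding genes in that class. Of the 27 members with 10 to 19 exons, 33.3% fell and 22.2% rose, against 28.6% and 24.7%. A larger share of falls was thus not limited to the members with many exons. Among the 44 members with under 20 exons, r was 0.03 and rho 0.09. CDC45 with 19 exons and E2F2 with 7 had values of -0.98 and -0.99, within the range of the long genes that fell. With gene span in place of exons, r was -0.15 and rho 0.03 across the members.

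**Figure D4:**
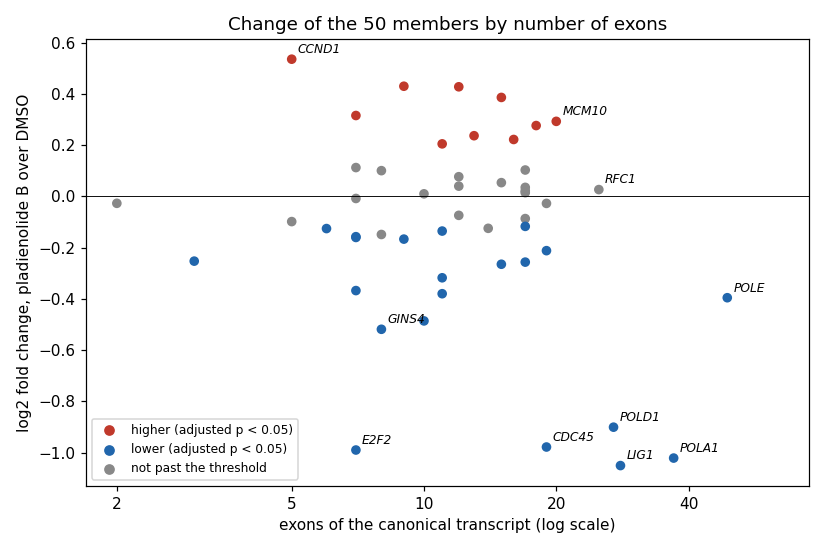
Log2 fold change of each of the 50 members (y axis) against the number of exons of its canonical transcript (log scale, x axis), coloured by the call. POLA1, LIG1, POLD1 and POLE lie at the lower right, while RFC1 and MCM10 have 25 and 20 exons and values of 0.03 and 0.29.

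Other genes of the pathway, on 6 lists with 75 tested genes, gave 16 that rose and 33 that fell, with a median log2 fold change of -0.11. Over all genes tested, 22.4% rose and 25.2% fell, and the counts of each list below stand against these shares. Of 15 other licensing and firing factors, 5 rose and 7 fell. ORC5, an origin recognition subunit, rose by 0.47 and DONSON, a replication fork factor, by 0.43. ORC3, another origin recognition subunit, fell with a log2 fold change of -0.52 and TICRR, a firing factor, with -0.36. The value of ORC5 ran from 0.34 to 0.62 with a sample left out, and its call was lost without limma's variance trend (adjusted p = 0.0554).

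Of 13 other polymerase, clamp and maturation factors, 2 rose and 6 fell. TOP1, the topoisomerase that relieves supercoils ahead of forks, rose by 0.43, and POLE3, a small subunit of DNA polymerase epsilon, by 0.21. TOP2A, the topoisomerase that untangles sister chromatids, fell with a log2 fold change of -0.68 and RNASEH2B, which helps to remove ribonucleotides from DNA, with -0.49. Of 12 fork protection and checkpoint genes, 3 rose, among them the checkpoint clamp subunit HUS1 with 0.74 and WDHD1 with 0.23, and 1 fell, TIMELESS with -0.20. Without the variance trend, the calls of POLE3 (limma adjusted p = 0.0546) and WDHD1 (0.0574) were lost.

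Nucleotide supply had the lowest median of these 6 lists, at -0.37, with 6 of 9 genes lower and 1 higher. TK1, which salvages thymidine, had 6734, 6979 and 6835 adjusted reads in DMSO and 3712, 3351 and 3861 in pladienolide B. Its groups were far apart, with a log2 fold change of -0.91 (SE 0.05, limma adjusted p = 2.89e-10). DUT, which removes dUTP, fell with -0.61, while DCTPP1, which breaks down modified dCTP, rose by 0.32. Of 7 genes of chromatin assembly at the fork 3 fell and 0 rose, among them CHAF1A with -0.21 and DNMT1, the maintenance DNA methyltransferase, with -0.21. The call of CHAF1A was lost without the variance trend (limma adjusted p = 0.0562).

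Of 19 other G1/S regulators, 5 rose and 10 fell. E2F7 and E2F8 are both repressors of the E2F family, and E2F7 rose by 0.50 while E2F8 fell with a log2 fold change of -1.06. E2F6, another repressor, rose by 0.40. CCNA2, the S-phase cyclin A2, fell with -0.63 (SE 0.05, limma adjusted p = 4.64e-08). RB1, which holds E2F factors inactive, had a value of -0.02 (limma adjusted p = 0.902). Of 7 cyclin-dependent kinase inhibitors, 1 rose and 4 fell. The one that rose was CDKN1A, which encodes p21, with 987, 845 and 866 adjusted reads in DMSO and 2054, 2087 and 1865 in pladienolide B. The treated samples were all above the controls, a log2 fold change of 1.16 (SE 0.06, limma adjusted p = 4.5e-10). CDKN2C and CDKN2D, inhibitors of CDK4, had log2 fold changes of -0.82 and -0.63.

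The 25 mitosis genes were set beside the members for scale. Of these 23 fell, 0 rose and 2 did not pass, where 25.2% of all genes tested fell and 22.4% rose. The log2 fold changes of the mitosis genes had a median of -0.46 and ran from -1.14 to -0.07. The largest falls on this list were -1.14 for KIF20A, a motor of cytokinesis, and -1.11 for CENPA, the histone of centromeres. The interquartile range was -0.58 to -0.31 for the mitosis genes and -0.26 to 0.10 for the 50 members. The difference between the lists was not tested.

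**Figure D5:**
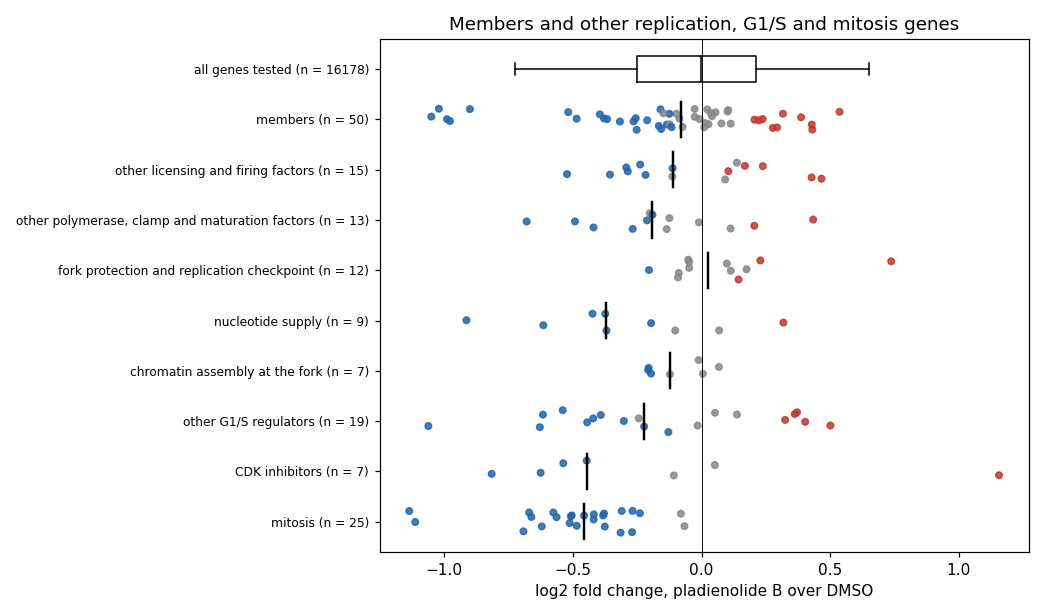
Log2 fold change (x axis) of the tested genes of each list, with a point per gene coloured by the call (red higher, blue lower, grey not past the threshold), a black bar at each list's median, and a box with 5th to 95th percentile whiskers for all 16178 genes. The members spread on both sides of 0 around a median of -0.08, whereas all mitosis genes lie below 0 around -0.46.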

How the data were processed

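PolyA RNA of OVCAR8 cells was sequenced after 72 h with DMSO or with pladienolide B, in 3 samples per group, grouped by GEO's labels. The study's methods state trimming and alignment to hg38 with hisat2. The submitters' processing notes name HISAT2, HTSeq 0.12.4, DESeq2 and hg19, but the deposited positions lie on GRCh38, where 99.9% of 26698 symbols overlapped the GENCODE gene of that name, all 50 members included. Whether reads were counted by strand is not stated. The authors deposited 1 signal value per gene and sample, adjusted for library size. They match edgeR's quantile adjustment of counts at a common dispersion of 0.0027, and when it was inverted 100% of the 96432 values of at least 10 became whole reads (tolerance 0.02). A log2 fold change, a p-value and a q-value per gene, also deposited by the authors, were not used.

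Values were tested on log2(value + 1) with limma 3.58.1 in R 4.3.3, with a variance trend, two-sided, and Benjamini-Hochberg adjustment over the 16178 genes kept by filterByExpr of edgeR 4.0.16 (a value of about 10 in 3 samples and 15 in total). On this scale, changes of weakly expressed genes come out smaller. A call is an adjusted p below 0.05. The limma fit was tested on simulated data. Alternatives were no filter, at least 10 in every sample, a pseudocount of 0.1, no variance trend, the replicate number as a block, each sample left out, and, on the recovered reads, edgeR's quasi-likelihood test with TMM and DESeq2 1.42.0. Because the methods name DESeq2, which needs counts, while the deposited values are adjusted, limma was the main test.

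The members and gene lists were chosen with earlier results of these data known. Values in every sample are given for the 12 members with the largest changes past the threshold, the member with the largest change in each role, and E2F1, CCNE1, CCND1, CDK4 and PCNA. Of the other genes, up to 2 rises and 2 falls per list are named, with SF3B1, CDKN1A and RB1. Genes that overlap a member, and ratios of partners, were chosen after the values were seen. Promoters were shown for members with values in every sample and an E2F match, up to 3 that rose and 3 that fell, a rule met by 4 genes.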

Additional observations from a re-analysis of the deposited data

How the results depend on the processing

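Over 13 alternatives, 606 of 650 values of the members kept their direction and their side of the threshold, and 26 of the 31 members called did so under every alternative. The count of members called was 26 to 32, with 10 to 13 higher and 16 to 21 lower, and 28 to 32 when each sample was left out. A call was lost in 26 values, for UHRF1 in 9, PCNA in 7, RFC3 in 5, GMNN in 4 and RRM1 in 1. RRM1 lost it without the variance trend, as did ORC5, POLE3, WDHD1 and CHAF1A among the other genes named. The count of members at least 2-fold lower was 2 or 3. A call was gained in 8 values, for CDK4, RPA1, GINS1, MCM3 and RPA3. Without the variance trend, 6381 of all genes were called, and 9 rather than 16 of the 75 other replication and G1/S genes were higher. The cause was not tested. When each sample was left out in turn, the sign turned for genes near 0, none of them called, with log2 fold changes from -0.0322 to 0.0435 for CDT1, -0.0755 to 0.0422 for E2F1, -0.0598 to 0.0029 for FEN1, -0.009 to 0.0368 for MCM6, -0.084 to 0.04 for POLE2 and -0.0671 to 0.0577 for RB1. On the recovered reads, edgeR called 31 members, 11 higher and 20 lower, and DESeq2 29, 11 higher and 18 lower. Samples of the same replicate number did not deviate together, with correlations of deviations of -0.0183, -0.0175 and 0.00261. These values do not show whether the samples were handled in pairs. The fit with the replicate block called 29 members and 7349 genes. Genes that overlap on opposite strands limit MCM2, RFC5, RPA3, CCNE2, CDK4 and PCNA, and 3 samples a group limit every ratio.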
